A study of Mus musculus with 10 samples.

Results

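The chemokine and migration receptors described here are 9 genes, Cxcr5, Ccr7, Ccr6, Gpr183, S1pr1, Cxcr4, Cxcr3, Ccr9 and Ccr10, of 19937 genes measured. Each member had exactly 1 probe set with a single gene symbol in the platform annotation, so the choice of the brightest probe set per gene decided nothing for them. The cells were J558, a murine myeloma, a tumour of plasma cells, and gene expression was read on Affymetrix whole-transcript arrays. All cultures had been infected with an MSCV retrovirus that also carries puromycin resistance and GFP, were selected in puromycin and were sorted for GFP and IgM. There were 4 arrays of cells given Pax5 G183S, in which serine replaces a glycine of the protein, 3 of cells given wild-type Pax5 and 3 of cells given the empty vector. The labels call the replicates biological without saying whether each was a separate infection. The p-values set differences against the spread between these arrays, which may or may not include that between infections. Pax5 was supplied from a vector in a single cell line, which limits the cells as a model of B lymphocytes.

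The receptors are G-protein-coupled receptors of the cell surface that steer lymphocytes along gradients of chemokines or lipids. Follicular B cells use CXCR5 to enter follicles, CCR7 to approach the T-cell zone, GPR183 to follow oxysterols to the follicle edge and CCR6 to sense CCL20. Plasma cells lower several of these and use CXCR4 to reach CXCL12 in bone marrow, CCR9 and CCR10 to reach gut and other mucosa, and CXCR3 to reach inflamed tissue, while S1PR1 lets B cells and plasma cells leave tissue for blood or lymph. Pax5 holds lymphoid cells in B-cell identity, and plasma cells no longer express it. The question put to the arrays was whether supplying Pax5 shifts a plasma-cell line from plasma-cell receptors towards follicular ones.

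Promoters of Ccr6 and Cxcr4 are shown, the sequence around listed starts of these genes. Their levels below are per gene and were not assigned to a start. RefSeq sequences of GRCm38.p6, from 250 bases before to 50 after a start, matched 5 of the 9 members (Ccr6, Gpr183, Cxcr4, Cxcr3 and Ccr9); Ccr7, the receptor that varied most, was not among them. The windows of Ccr6, whose signal was highest with wild-type Pax5, lie at chr17:8235793-8236092 and chr17:8242276-8242575, both on the + strand, and that of Cxcr4, the receptor bright on every array, lies at chr1:128592250-128592549 on the - strand. Capitals mark a match to the octamer motif ATGCAAAT on either strand.
Ccr6, start 1: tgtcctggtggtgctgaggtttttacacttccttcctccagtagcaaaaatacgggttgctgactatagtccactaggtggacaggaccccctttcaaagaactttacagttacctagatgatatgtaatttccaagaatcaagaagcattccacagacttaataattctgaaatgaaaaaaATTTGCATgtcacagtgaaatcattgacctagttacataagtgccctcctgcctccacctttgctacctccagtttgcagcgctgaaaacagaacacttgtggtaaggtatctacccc
Ccr6, start 2: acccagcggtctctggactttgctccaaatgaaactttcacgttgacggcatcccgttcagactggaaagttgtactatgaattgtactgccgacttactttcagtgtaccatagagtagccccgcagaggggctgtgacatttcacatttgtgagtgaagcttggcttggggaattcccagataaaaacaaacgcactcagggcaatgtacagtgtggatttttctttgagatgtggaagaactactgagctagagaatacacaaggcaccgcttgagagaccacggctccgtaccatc
Cxcr4: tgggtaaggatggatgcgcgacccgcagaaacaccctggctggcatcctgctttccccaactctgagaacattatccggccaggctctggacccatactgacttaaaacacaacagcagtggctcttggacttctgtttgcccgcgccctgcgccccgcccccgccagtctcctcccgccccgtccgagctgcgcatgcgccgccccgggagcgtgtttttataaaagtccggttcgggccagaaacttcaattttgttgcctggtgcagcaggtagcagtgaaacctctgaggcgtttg

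Both strands of the 6 member windows were searched for GCGTGAC, a core of Pax paired-domain sites, and for ATGCAAAT, GTAAACA (bound by FOXO factors), CAGGTG and CAGCTG (E-boxes); the motifs do not contain one another. The Pax core was not in any of the 6 windows; 2.09% of all 32851 promoter windows hold it. The octamer was in the first Ccr6 window, where the match begins at position -68 from the start and reads on the other strand; 1.74% of all windows hold it. CAGGTG was in the windows of Cxcr3 and Ccr9, against 20.2% of all windows, and GTAAACA (3.65% of all) and CAGCTG (16.3%) were in none of the 6. These are descriptions of the letters only. The windows also differ in composition. Cxcr4 has 59.3% G and C and 20 CpG pairs, against 42.3% and 2 in the first Ccr6 window, 47.7% and 10 in the second, and medians of 52.7% and 7 over all windows.

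Array medians lay between 6.81 and 6.94 log2 units, and arrays correlated at 0.985 to 0.998 with others of their group and at 0.978 to 0.995 with those of another (Pearson r over genes; 0 identical pairs). Over the 7 plasma-cell markers, all measured, the array means were 10.8 to 11.8 with G183S, 11.3 to 11.7 with wild type and 11.6 to 11.7 with empty vector. None of the 7 was called, and they did not move alike. Irf4 averaged 12.44 with wild type, above 11.86 with empty vector without overlap. With G183S it averaged 11.86 and was uneven, at 12.59, 11.88, 11.34 and 11.62. Prdm1 and Ell2 also had higher means with wild type, at 10.82 and 11.46 against 10.45 and 11.22 with empty vector. With G183S they averaged 10.35 and 11.27. Replicate 1 of G183S read 11.14 and 11.60, and the other G183S arrays 9.96 to 10.16 and 11.13 to 11.17. Xbp1 and Mzb1 had lower means with both forms of Pax5, as did Sdc1 and Tnfrsf17, surface proteins of plasma cells. Sdc1 averaged 10.26 with G183S, 10.77 with wild type and 11.41 with empty vector, and both Pax5 groups lay below empty vector without overlap (limma adjusted p = 0.119 and 0.339). Tnfrsf17 averaged 8.99 with G183S, where its arrays ran from 7.72 to 10.25, 10.29 with wild type and 11.07 with empty vector; G183S did not overlap empty vector (limma adjusted p = 0.119). The part of these markers in the receptor values was not tested. Pax5 itself read 10.22, 10.36, 9.38 and 9.96 log2 units with G183S, 10.67, 10.09 and 10.05 with wild type, and 7.10, 6.84 and 7.01 with empty vector. The probe set does not tell mutant from wild-type transcript. As a guide to what dim probe sets read, 11 genes of liver, pancreas, heart, brain, skin, kidney and lung gave single values between 4.31 and 7.68. The upper end was set by Apoa2 alone, at 7.09 to 7.68, and the next-highest gene, Myh6, reached 6.66. Probe sets differ in brightness, so the range over the 11 genes is no detection limit. Of the receptors, 7 stayed within it on all 10 arrays: Cxcr5, Ccr6, Gpr183, S1pr1, Cxcr3, Ccr9 and Ccr10. Among these, Ccr6, Cxcr3 and Ccr10 had values above those of Myh6. Ccr7 exceeded the full range on 9 of 10 arrays and Cxcr4 on 10 of 10.

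Ccr7, the receptor for CCL19 and CCL21, was the member with the highest values in cells given Pax5 relative to empty vector. It read 9.26, 9.87, 9.07 and 9.44 log2 units with G183S, 8.02, 8.84 and 9.98 with wild type, and 7.66, 7.99 and 7.72 with empty vector. All 7 Pax5 arrays lay above all empty-vector arrays, by 1.09 units at the nearest with G183S but by 0.03 with wild type, whose replicate 1 was close to empty vector. In a mass of cells, more cells with the transcript and more transcript per cell cannot be told apart.

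Ccr7 averaged 9.41 ± 0.34 with G183S (SD, n = 4) and 7.79 ± 0.17 with empty vector (n = 3), a log2 difference of 1.62 ± 0.38 SE or 3.08-fold (95% interval 1.72 to 5.50). It did not pass limma's threshold over all genes (adjusted p = 0.103), and the exact two-sided permutation test gave p = 0.0571, the smallest that 4 against 3 arrays allow. That side of the threshold depended on the wild-type arrays, which share the estimate of spread. Without wild-type replicate 1 the limma adjusted p was 0.0439, without replicate 3 it was 0.0310, and with G183S and empty vector fitted alone it was 0.0180. In the other direction, the adjusted p was 0.208, 0.343 and 0.385 without empty-vector replicates 1, 2 and 3.

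Wild-type arrays averaged 8.95 ± 0.99 for Ccr7 against 7.79 ± 0.17 with empty vector (SD, n = 3 each), which is 1.16 ± 0.40 SE higher in log2 units, or 2.23-fold with an interval from 1.20 to 4.16 (limma adjusted p = 0.188; exact permutation p = 0.1, the smallest for 3 against 3). It was 1.62 without wild-type replicate 1 and 0.64 without replicate 3 (limma adjusted p = 0.0735 and 0.270), so single wild-type arrays set its size. Between G183S and wild type the Ccr7 difference was 0.46 ± 0.38 log2 units (interval -0.38 to 1.30, limma adjusted p = 0.685), and it was -0.0031 without wild-type replicate 1. Among the Pax5 arrays the order of Ccr7 was not that of Pax5: wild-type replicate 1 had the highest Pax5 value and the lowest Ccr7 value of the 7.

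Ccr6, the receptor for CCL20, was highest with wild-type Pax5. Its values were 6.09, 6.22, 5.88 and 6.17 log2 units with G183S, 6.34, 7.39 and 6.37 with wild type, and 5.60, 5.74 and 6.01 with empty vector. Wild-type arrays lay above both other groups, and G183S arrays overlapped empty vector. Replicate 2 carried much of the wild-type mean. The signal stayed within the range of the genes of other organs, where probe sets of unexpressed genes also read. Wild-type replicate 2 (7.39) was nevertheless above the values of all those genes except Apoa2.

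Wild-type and empty-vector means of Ccr6 were 6.70 ± 0.60 and 5.78 ± 0.21 (SD, n = 3 each), a log2 difference of 0.92 ± 0.25 SE or 1.89-fold (interval 1.29 to 2.77). It did not pass (limma adjusted p = 0.0995; exact permutation p = 0.1, the smallest possible). Without wild-type replicate 2 the difference was 0.57, and the groups were still apart (limma adjusted p = 0.102). G183S cells averaged 6.09 ± 0.15 (n = 4), 0.31 ± 0.23 log2 units above empty vector (limma adjusted p = 0.726) and 0.61 ± 0.23 below wild type (log2 difference -0.61, interval -1.13 to -0.09, limma adjusted p = 0.508; exact permutation p = 0.0571, the smallest possible). Without wild-type replicate 2 the difference between G183S and wild type was -0.26. With arrays weighted by their quality, a setting that gave wild-type replicate 2 the highest weight (3.48), Ccr6 passed against empty vector (limma adjusted p = 0.00483) and between G183S and wild type (adjusted p = 0.0200).

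**Figure D1:**
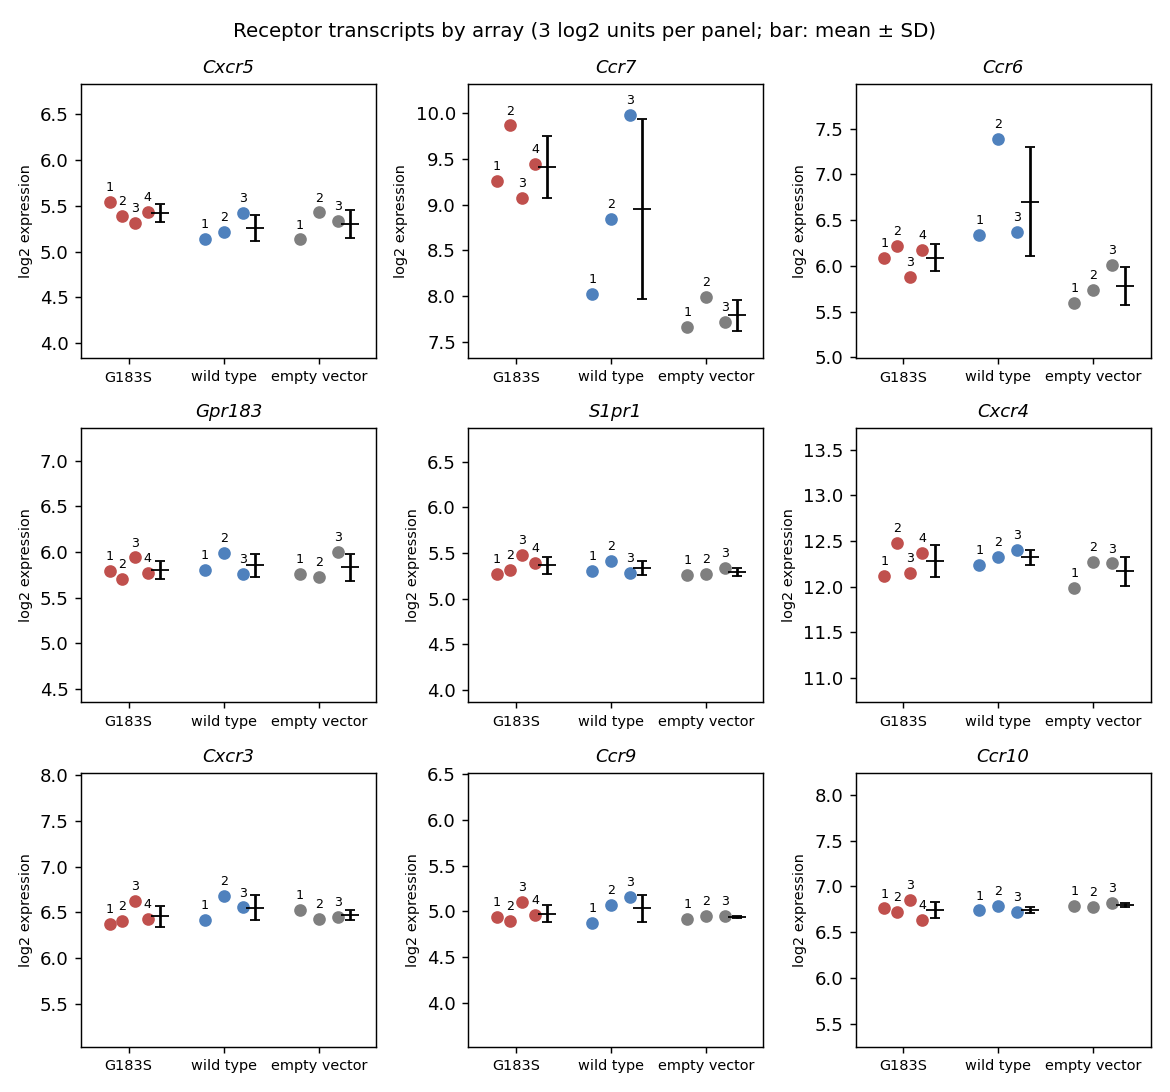
Log2 expression of the 9 receptors on every array, with G183S (n = 4), wild type (n = 3) and empty vector (n = 3) from left to right; numbers are replicates, bars are mean ± SD, and every panel spans 3 log2 units. Ccr7 sits at 9.07 to 9.87 with G183S, 8.02 to 9.98 with wild type and 7.66 to 7.99 with empty vector, Ccr6 is highest in wild-type replicate 2 at 7.39, and the other panels are nearly level.

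Cxcr5, the receptor that places B cells in follicles, stayed at the same dim signal in all groups. It read 5.54, 5.39, 5.31 and 5.44 log2 units with G183S, 5.14, 5.21 and 5.42 with wild type, and 5.13, 5.43 and 5.34 with empty vector. All 3 groups overlapped. The log2 difference from empty vector was 0.12 (interval -0.09 to 0.33) with G183S and -0.04 (interval -0.27 to 0.19) with wild type, limma adjusted p = 0.753 and 0.885.

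Gpr183, the oxysterol receptor also called EBI2, read 5.80, 5.71, 5.94 and 5.77 with G183S, and averaged 5.81 ± 0.10 there (SD, n = 4), 5.85 ± 0.13 with wild type and 5.83 ± 0.15 with empty vector (n = 3 each). Its differences from empty vector were -0.03 with G183S (interval -0.23 to 0.18) and 0.02 with wild type (interval -0.20 to 0.24). S1pr1, the sphingosine 1-phosphate receptor used for egress, read 5.27 to 5.48, 5.28 to 5.42 and 5.26 to 5.34 in the same order of groups. Its differences were 0.07 with G183S (interval -0.08 to 0.23) and 0.05 with wild type (interval -0.12 to 0.21).

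Cxcr4, the bone-marrow homing receptor, was bright everywhere and about as bright with Pax5 as without. It read 12.12, 12.48, 12.15 and 12.36 log2 units with G183S, 12.24, 12.32 and 12.40 with wild type, and 11.99, 12.27 and 12.25 with empty vector. The groups overlapped, and the lowest value was that of empty-vector replicate 1. The difference from empty vector was 0.11 ± 0.11 SE with G183S (1.08-fold, interval 0.92 to 1.27) and 0.15 ± 0.11 with wild type (1.11-fold, interval 0.93 to 1.33), limma adjusted p = 0.813 and 0.572.

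The mucosal and inflammatory receptors were dim and level. Ccr9 averaged 4.98 ± 0.09 with G183S (SD, n = 4), 5.04 ± 0.15 with wild type and 4.94 ± 0.02 with empty vector (n = 3 each). Ccr10 averaged 6.74 ± 0.09, 6.75 ± 0.03 and 6.79 ± 0.02, and Cxcr3 averaged 6.46 ± 0.11, 6.55 ± 0.13 and 6.47 ± 0.05, with the groups in the same order. In each of the 3 genes the groups overlapped in all comparisons.

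Leaving Ccr7 and Ccr6 aside, the differences of the 7 other receptors lay between -0.05 and 0.15 log2 units for wild type against empty vector, between -0.05 and 0.12 for G183S against empty vector and between -0.09 and 0.16 for G183S against wild type. Their 95% intervals reached from 0.83-fold to 1.33-fold, 0.85-fold to 1.27-fold and 0.82-fold to 1.30-fold. All but Cxcr4 among them had dim signals, for which these folds are of processed signal and not of transcript number. Over all 10 arrays Ccr7 spanned 2.32 log2 units and Ccr6 1.79, more than 99.1% and 98.1% of all genes. Cxcr4 spanned 0.50, more than 60.4% of genes, and the other 6 spanned 0.21 to 0.41.

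**Figure D2:**
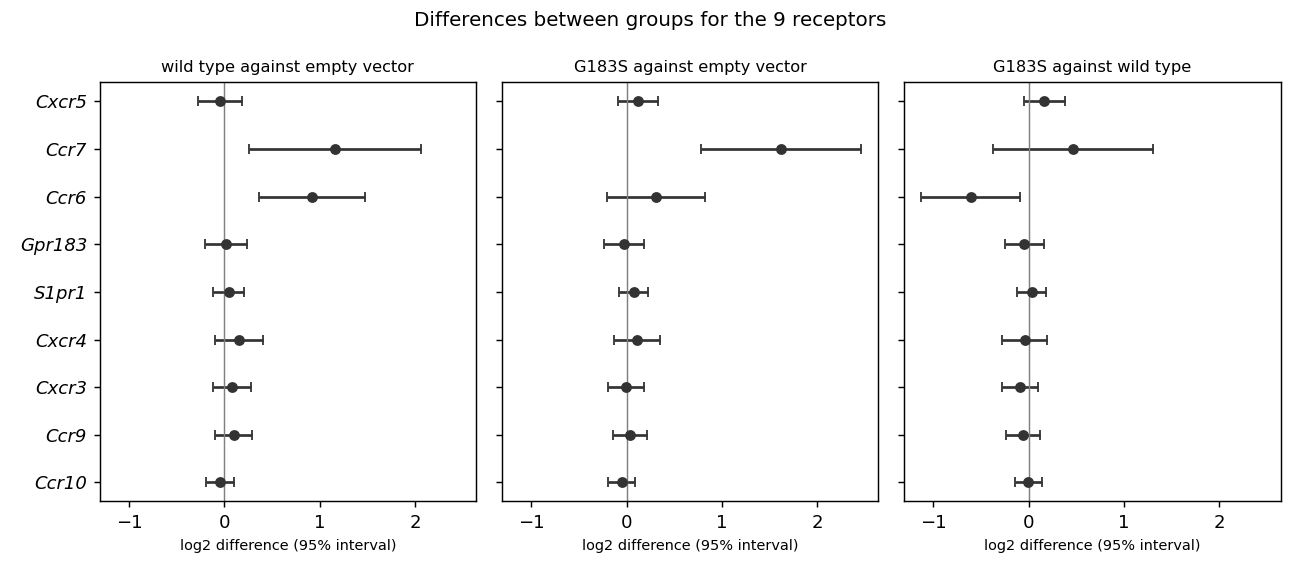
Log2 differences (horizontal axis) of the 9 receptors in the 3 comparisons, with 95% intervals from limma's moderated standard errors, first-named group minus the second. Only Ccr7 and Ccr6 have intervals that leave out 0 in any comparison, before adjustment for 19937 genes; their largest differences are 1.62 for Ccr7 with G183S and 0.92 for Ccr6 with wild type.

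None of the 9 receptors passed limma's adjusted p in any comparison. The background of calls was 1.88% of genes for wild type against empty vector (0.883% higher, 0.993% lower), 0.311% for G183S against empty vector (0.100% higher, 0.211% lower) and 0% for G183S against wild type. These all-gene counts rested on single arrays. Without G183S replicate 1 they were 1033 genes in place of 374 for wild type against empty vector, 295 in place of 62 for G183S against empty vector and 1113 in place of 0 for G183S against wild type, and without empty-vector replicate 3 they were 6, 8 and 0. At an unadjusted p under 0.05, limma gave 2 members for wild type (15.9% of all genes), 1 for G183S (11.3%) and 1 between G183S and wild type (9.48%). Without moderation 0 passed the adjusted threshold in each comparison, and with array weights 2, 1 and 1 passed. Groups did not overlap for 2 of 9 members between wild type and empty vector, both higher with wild type, against 24.0% of all genes (11.5% higher, 12.5% lower). They did not overlap for 1 of 9, Ccr7, between G183S and empty vector, against 11.6% (5.02% higher, 6.56% lower), and for 1 of 9, Ccr6, between G183S and wild type, lower with G183S, against 6.50% (2.33% higher, 4.17% lower). These counts are near what all genes gave, so they single out nothing about the receptors as a set. The median member difference was 0.08, 0.07 and -0.04 log2 units in the 3 comparisons, beside 0.01, -0.00 and -0.02 over all genes. The first 2 comparisons share the empty-vector arrays.

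Follicular and plasma-cell receptors were set against each other within each array. The score is the mean deviation of Cxcr5, Ccr7, Ccr6 and Gpr183 from their empty-vector means, less that of Cxcr4, Ccr9, Ccr10 and Cxcr3. It is a description, with no test. The score was 0.54, 0.59, 0.28 and 0.53 log2 units with G183S, 0.18, 0.56 and 0.59 with wild type, and -0.10, 0.03 and 0.07 with empty vector. Every Pax5 array lay above every empty-vector array. Group means were 0.49 ± 0.14 (SD, n = 4) with G183S and 0.44 ± 0.23 (n = 3) with wild type, around 0 ± 0.09 (n = 3) with empty vector.

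The plasma-cell receptors stayed near their empty-vector levels. Their mean deviation was -0.05 to 0.09 with G183S and -0.02 to 0.12 with wild type. Only Cxcr4 among them read above the range of the genes of other organs. Ccr9, Ccr10 and Cxcr3 stayed within it on every array, where a fall could go unseen. Cxcr5, Gpr183 and Ccr6 on the follicular side stayed within it too. Without Ccr7, a setting chosen after seeing the data, the score was 0.22, 0.10, -0.02 and 0.15 with G183S and 0.15, 0.44 and 0.10 with wild type, against -0.10, -0.02 and 0.12 with empty vector. Both Pax5 groups then overlapped empty vector. The medians of single differences were 0.21 for follicular and 0.01 for plasma-cell receptors with G183S, and 0.47 and 0.09 with wild type.

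**Figure D3:**
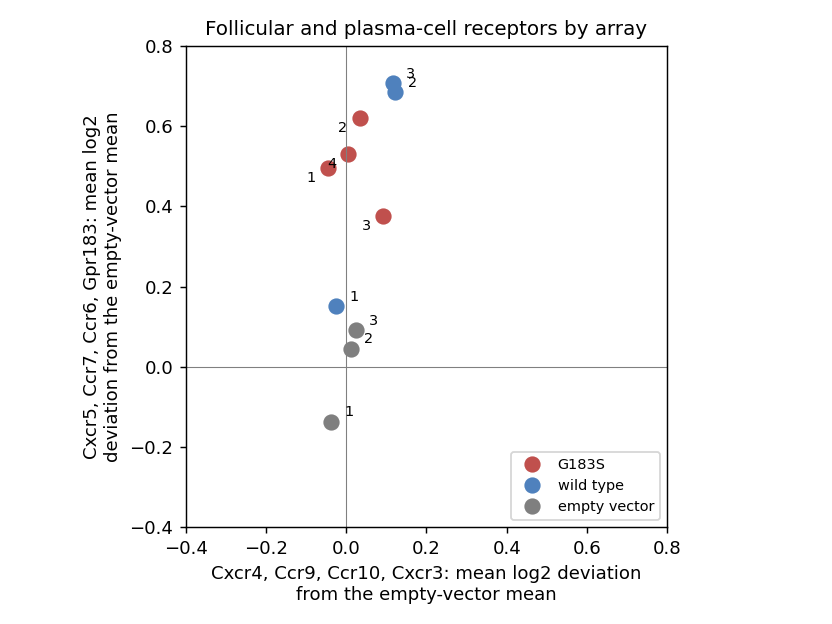
Mean log2 deviation from the empty-vector mean of the follicular receptors (vertical axis) and of the plasma-cell receptors (horizontal axis), one point per array, numbered by replicate. The 7 Pax5 arrays lie higher than the empty-vector arrays, at 0.15 to 0.71 against -0.14 to 0.09, and all 10 arrays keep within -0.05 to 0.12 on the horizontal axis.

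Other migration genes were taken from 6 lists of 94 genes, of which 87 had a single-symbol probe set. Wild type against empty vector called 1 lower and 0 higher, G183S against empty vector 1 higher and 0 lower, and G183S against wild type 0 either way; non-overlapping groups made up 26.4%, 12.6% and 11.5% of the 87, beside 24.0%, 11.6% and 6.50% of all genes. The first 2 shares are near those of all genes. Of 16 other chemokine receptors, 0 passed in any comparison, and their medians were 0.03, -0.02 and -0.04 log2 units in the comparisons in that order. Ackr4, a decoy receptor that takes up CCR7 ligands, averaged 7.55 with G183S, 7.82 with wild type and 8.17 with empty vector (difference between G183S and empty vector -0.63 ± 0.24 SE, limma adjusted p = 0.351).

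Ligand and ligand-synthesis genes had 0 of 16 past the threshold. Ccl20, the CCR6 ligand, read 6.58, 7.10, 8.38 and 6.29 with G183S, 6.04, 6.38 and 6.42 with wild type, and 6.15, 6.26 and 5.97 with empty vector (limma adjusted p = 0.402 for G183S against empty vector). Its G183S mean rested on replicate 3. Sgpl1, the lyase that breaks down sphingosine 1-phosphate, averaged 9.42 with wild type and 10.16 with empty vector (difference -0.74 ± 0.21, limma adjusted p = 0.122), without overlap.

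Among 13 other lipid and nucleotide receptors, 0 passed. S1pr2, which holds B cells in the germinal centre, read 8.93, 8.72, 8.89 and 8.94 with G183S, 9.23, 9.39 and 9.04 with wild type, and 9.12, 9.40 and 9.38 with empty vector. All G183S arrays lay below all others, a difference of -0.43 ± 0.10 from empty vector and -0.35 ± 0.10 from wild type, neither past limma's threshold (adjusted p = 0.113 and 0.484). P2ry10, a lysophospholipid receptor, read 4.97, 4.76, 4.53 and 5.43 with G183S and was uneven with wild type, at 6.08, 6.86 and 4.56, against 4.21, 4.39 and 4.60 with empty vector (limma adjusted p = 0.163).

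Rgs1, which quenches signals of chemokine receptors by turning off G proteins, rose with G183S. It read 6.76, 5.90, 6.98 and 6.46 log2 units with G183S, 5.48, 5.56 and 5.85 with wild type, and 5.43, 5.08 and 5.07 with empty vector. The 3 groups did not overlap. The difference from empty vector was 1.33 ± 0.22 SE with G183S (limma adjusted p = 0.0486) and 0.43 ± 0.24 with wild type (adjusted p = 0.421), and that between G183S and wild type was 0.90 ± 0.22 (adjusted p = 0.484). It was the 1 call among 15 signalling genes, where 0.311% of all genes were called, and it lay close to the threshold. The adjusted p was 0.0617, 0.241 and 0.297 when empty-vector replicates 1, 2 and 3 were left out in turn, 0.0731 when wild-type replicate 2 was, 0.0567 when replicate 3 was, and 0.119 when G183S replicate 4 was. Its signal was in the range of the genes of other organs, though G183S values of 6.76 and 6.98 were above those of all except Apoa2. Cd69, which pulls S1PR1 from the surface, was bright at 12.53 with G183S, 12.30 with wild type and 12.14 with empty vector and did not pass (limma adjusted p = 0.652 and 0.820 against empty vector). Klf2 and Foxo1, factors that raise S1pr1 and Ccr7 in lymphocytes, did not pass either.

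Genes that turn receptor signals into movement had a lower median with wild type. Of 14, 7 were lower and 2 higher without overlap between wild type and empty vector, beside 12.5% lower and 11.5% higher over all genes. Of the 14, 1 was called, and the median was -0.21 log2 units against 0.01 over all genes. The actin regulator gene Was fell, with 9.92, 9.86 and 9.99 log2 units under wild type and 10.49, 10.47 and 10.30 under empty vector. With G183S it read 10.01, 10.15, 10.43 and 10.29, overlapping empty vector but not wild type. The log2 difference between wild type and empty vector was -0.49 ± 0.11 SE (limma adjusted p = 0.0495, with 1.88% of all genes called). That call was lost without any empty-vector replicate (adjusted p = 0.138, 0.198 and 0.117 without replicates 1, 2 and 3) or any wild-type replicate (0.127, 0.135 and 0.0756), without G183S replicates 2 and 4 (0.0755 and 0.0764), and with quantile normalization (0.0588). Rac2, a GTPase of leukocyte movement, averaged 12.24 with wild type and 12.86 with empty vector (limma adjusted p = 0.116), and Rassf5, an adaptor for integrin activation, 7.18 and 7.69 (adjusted p = 0.129).

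With G183S the median of these 14 was -0.19, beside -0.00 over all genes, and 2 were lower and 1 higher without overlap, near the 6.56% and 5.02% of all genes. Arhgef1, the exchange factor downstream of S1PR2, was at 8.86 against 9.13 with empty vector (difference -0.27 ± 0.06, limma adjusted p = 0.0884). Homing adhesion genes had 0 of 13 past the threshold in all comparisons. The integrin gene Itga4 averaged 8.22 with G183S, 8.66 with wild type and 9.58 with empty vector, with a difference of -1.36 ± 0.56 between G183S and empty vector (limma adjusted p = 0.391).

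**Figure D4:**
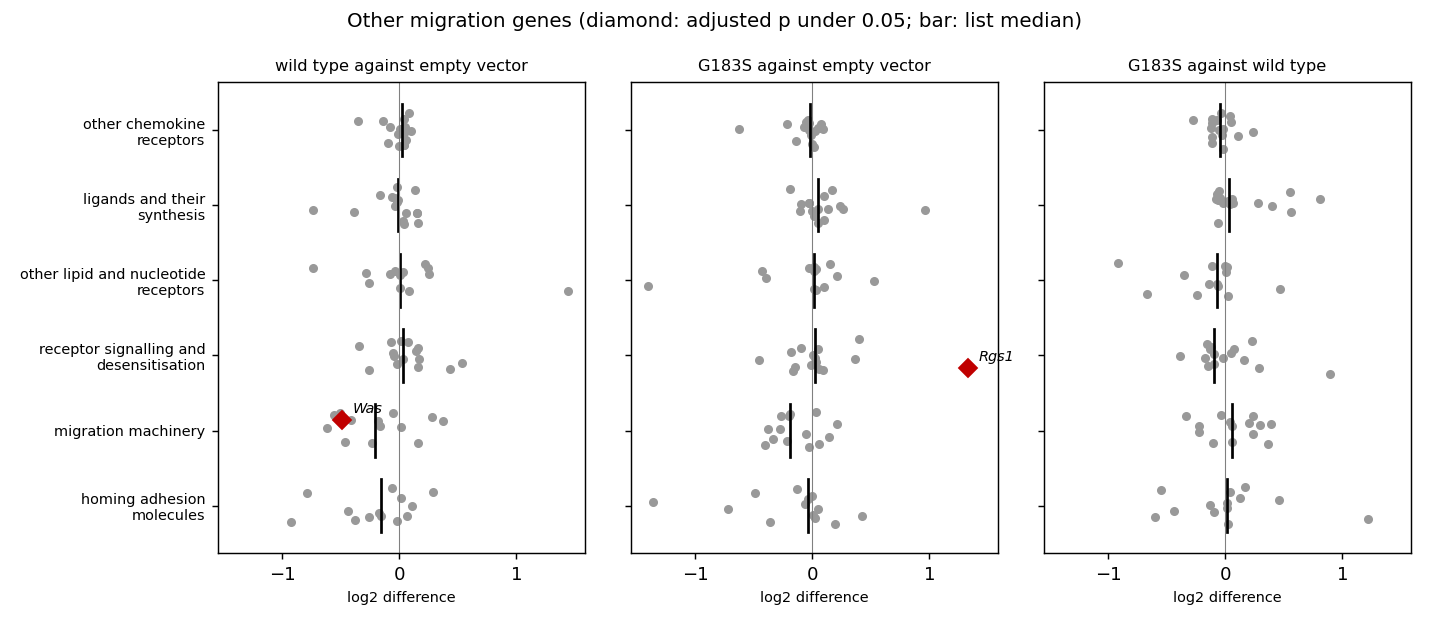
Log2 differences (horizontal axis) of 87 other migration genes in 6 lists (rows) for the 3 comparisons, with 1 point per gene and a bar at each list's median. Diamonds mark adjusted p under 0.05, held by Rgs1 for G183S against empty vector (1.33) and Was for wild type against empty vector (-0.49).

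Across the 10 arrays, the genes whose levels followed those of Ccr7 most closely were Rap1b, a small GTPase gene (Pearson r = 0.951), the interleukin gene Il12b (r = 0.945) and the nuclear pore gene Ahctf1 (r = 0.944). These were picked as the highest r of all genes outside predicted and gene-segment symbols, and the points share 3 groups, so r is a description. Rap1b read 11.92 to 11.99 with G183S, 11.82 to 12.02 with wild type and 11.69 to 11.78 with empty vector, a far narrower span than that of Ccr7. Il12b was dim, at 5.95 to 6.42 over all arrays, within the range of the genes of other organs. Like Ccr7, all 3 were above empty vector on every Pax5 array, and none passed limma's threshold (adjusted p = 0.213, 0.218 and 0.395 for G183S and 0.314, 0.349 and 0.296 for wild type).

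Markers of other cells that use these receptors are given beside Ccr7. The array means over 6 T-cell genes were 7.23 to 7.53 with G183S, 7.07 to 7.46 with wild type and 7.42 to 7.81 with empty vector. The T-cell genes did not move alike. Cd4, the co-receptor of helper T cells, averaged 6.59 with G183S and 6.61 with wild type, against single values of 7.09, 9.29 and 7.60 with empty vector, and neither Pax5 group overlapped empty vector (limma adjusted p = 0.181 and 0.150). Cd28, a co-stimulatory receptor, was bright, at 11.98 with G183S, 11.84 with wild type and 12.32 with empty vector. Cd3d and Cd3e, chains of the T-cell receptor complex, stayed within the range of the genes of other organs in every group, Cd3d at 5.28 with G183S, 5.39 with wild type and 5.35 with empty vector. The array means over 6 myeloid genes were 5.63 to 6.28, 5.64 to 5.85 and 5.90 to 6.06 in the same order of groups. Mpo and Adgre1 were lower with wild type without overlap, at 6.45 and 5.82 against 7.40 and 6.77 with empty vector. With G183S they averaged 7.33 and 6.98 and overlapped empty vector. Replicate 1 of G183S read 6.28 and 5.76, and the other G183S arrays 7.31 to 7.99 and 7.16 to 7.56. Lyz2, at 5.32 against 5.13, and Cd14, at 5.53 against 5.47, had higher means with wild type. None of the 6 was called. The B-cell list, 5 of 6 measured, was at 9.69 to 10.16 with G183S and 10.07 to 10.21 with wild type, above 9.28 to 9.52 with empty vector. Of these 5 genes, wild type called 2 higher and G183S 1, beside 0.883% and 0.100% of all genes. Cd22 was level, at 8.92 with G183S, 8.88 with wild type and 8.87 with empty vector. Ms4a1, which encodes CD20, rose with both forms, to 12.24 with G183S and 12.41 with wild type, against 9.98 with empty vector (limma adjusted p = 0.0171 and 0.0126). Blnk, an adaptor of the B-cell receptor, averaged 11.43 with G183S (adjusted p = 0.150) and rose to 11.98 with wild type (adjusted p = 0.0216), against 10.73 with empty vector. Cd79b went the other way, at 12.52 with G183S, 12.35 with wild type and 12.78 with empty vector, without overlap for wild type (limma adjusted p = 0.283). Cd79a, a signalling chain of the B-cell receptor, was within the range of the genes of other organs in every group, at 4.95 with G183S, 5.05 with wild type and 4.76 with empty vector. The part of any of these in the Ccr7 values was not tested.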

How the data were processed

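RNA of 10 J558 cultures (4 G183S, 3 wild type, 3 empty vector, grouped by their labels) was hybridised to 1-colour Affymetrix arrays. The authors deposited a log2 expression value for each probe set. The submitters' processing notes list RMA and Partek and give neither a version nor a role. RMA usually equalises the arrays' distributions, which would remove any change common to most genes. Detection calls, scan dates and a genome build were not used here. Precision is limited by how many arrays there are.

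Of 34760 probe sets, 21640 had a single gene symbol in the platform annotation, 1321 had several and 11799 no entry; the brightest per gene gave 19937 genes. Groups were compared with limma 3.58.1 in R 4.3.3, all 10 arrays in 1 fit, with empirical Bayes moderation and Benjamini-Hochberg adjustment over all genes; adjusted p under 0.05 was called. Fits were tested on simulated data. Exact permutation tests and all other tests are two-sided. Figures used Python 3.11.15 and matplotlib 3.10.9.

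The members, the lists and the naming rule were chosen with earlier results of these data known. Named genes are the members, Pax5, genes of the lists that were called or among the 3 smallest p in a comparison (not all are printed), and the 3 genes most correlated with the member of smallest p; Cd69, Klf2 and the cell type markers are named outside the rule, after their values were seen. List genes with no single-symbol probe set are not analysed here. Alternatives covered normalization, dim genes, probe sets, moderation, array weights, the groups fitted, a replicate block and leaving out each array.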

Additional observations from a re-analysis of the deposited data

Results flagged for a closer look

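None of the 9 receptors had a G183S array far from the rest of that group. The other groups hold 3 arrays and were not examined in this way, and chance gives such a gap in about 5% of groups. Among 77 genes examined, 8 had 1 G183S array set apart by most of the group's range, 7 of them through replicate 1. With that gap as a share of the range, they were Hsd3b7 (0.957; 6.65 against 7.20 to 7.23 log2 units), Ccl25 (0.872; 8.45 against 9.36 to 9.50), Stk4 (0.842; 11.36 against 11.64 to 11.69), Icam1 (0.927; 10.17 against 11.61 to 11.72), Selplg (0.839; 10.24 against 9.06 to 9.25), Cd44 (0.874; 10.14 against 9.28 to 9.39) and Ell2 (0.917; 11.60 against 11.13 to 11.17). Cd5 was set apart in replicate 3 (0.934; 7.95 against 7.11 to 7.16).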

How the results depend on the processing

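The 27 receptor differences were recomputed under 20 other settings, giving 519 values, of which 7 passed the threshold. With array weights 2 receptors passed for wild type against empty vector (Ccr7 and Ccr6), 1 for G183S against empty vector (Ccr7) and 1 for G183S against wild type (Ccr6). With only the 2 groups compared in the fit, 1 passed for G183S against empty vector. Leaving out 1 array gave 0 to 1 there, and 0 in both other comparisons. The direction of Ccr6 held under every setting that tested it (it was not tested with dim genes left out), and that of Ccr7 too, apart from G183S against wild type (-0.0031 to 0.98 with 1 array left out). In all, 27 of the 519 values turned sign, none past the threshold. For Gpr183, wild type against empty vector, the log2 difference was -0.014 with median centring and -0.019 with quantile normalization. Ccr10 between G183S and wild type was 0.0015 with quantile normalization, and S1pr1 and Cxcr4 there were -0.026 and 0.040 with array weights. Ranges with 1 array left out that crossed 0 were, for G183S against wild type, Ccr10 -0.041 to 0.030, Ccr9 -0.14 to 0.0017, Cxcr4 -0.11 to 0.012, Gpr183 -0.095 to 0.024 and S1pr1 -0.0076 to 0.071. For G183S against empty vector they were Ccr9 -0.0079 to 0.063, Cxcr3 -0.065 to 0.022 and Gpr183 -0.077 to 0.059, and for wild type against empty vector Cxcr5 -0.13 to 0.022 and Gpr183 -0.049 to 0.11. The score of G183S against empty vector was 0.11 without Ccr7, in place of 0.49, and that of wild type 0.23, in place of 0.44. Ccr7 is 1 of the 4 follicular receptors averaged, and its differences were 1.62 and 1.16. Why Ccr7 differed was not tested.

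Whether replicate numbers pair the arrays was not settled. Deviations of same-numbered arrays correlated between -0.16 and 0.51 over 9 pairs. The highest were those of wild type with G183S, at 0.51 for number 1 and 0.46 for number 3, while number 2 gave -0.16. Arrays with different numbers were not correlated for comparison. With the replicate block 0 receptors passed, and Cxcr3 for G183S against empty vector (0.0012) and Ccr10 for G183S against wild type (0.030) turned sign; Ccr7 for G183S against empty vector was 1.61 (adjusted p = 0.215). Dim signal limits 7 of the 9 receptors. The Rgs1 call for G183S against empty vector was kept in 8 of 19 settings (limma adjusted p from 0.00864 to 0.297; replicate block 0.124), and the Was call for wild type against empty vector in 7 of 20 (0.0039 to 0.198; replicate block 0.0984). Their directions held in all of these.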

Other observations

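The 3 wild-type arrays differed in which receptor was high. Ccr7 was highest in replicate 3 (9.98), Ccr6 in replicate 2 (7.39), and P2ry10 in replicates 2 and 1 (6.86 and 6.08), with replicate 3 at 4.56, inside the empty-vector range of 4.21 to 4.60. Icam1, the integrin ligand, read 10.17, 11.61, 11.72 and 11.71 log2 units with G183S, 9.13, 10.09 and 11.04 with wild type, and 10.93, 11.05 and 10.65 with empty vector.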
